A study of Arabidopsis thaliana with 48 samples.

Results

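STZ and AT1G33760 are 2 genes of stress-related transcription regulators, chosen by symbol or locus in the array's probe-to-gene table from 22746 probe sets that measure plant transcripts. STZ (locus AT1G27730, probe set 261648_at) is also called salt tolerance zinc finger or ZAT10 in the RefSeq annotation. AT1G33760 (probe set 261984_at) has no other symbol there and belongs to the ERF family. Each has 1 probe set, and neither probe set is one shared with another named gene.

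The study grew Landsberg erecta seedlings of Arabidopsis thaliana for 10 days and compared a gcn2 mutant with wild type. The 4 groups were gcn2 after chlorsulfuron (herbicide, spelled chlorosufuron in the labels), gcn2 after solvent (mock), wild type after herbicide and wild type after mock. Seedlings were dipped for 1 min at 2 h after the light came on, incubated for 2 h, and the aerial part was taken. All groups share the Landsberg erecta background, the growth medium with sucrose and the diluted acetone of the solvent. The gcn2 allele, the number of mutant lines and whether replicates were separate cultures are not given in the labels, so a p-value reflects the spread among these samples, which may be technical. The labelled dose is 0.5 mM, and the stated dilution of a 5 mM stock by 10000-fold comes to 0.5 µM, a 1000-fold difference that the labels do not settle. From each group, total RNA and 3 pools of a sucrose gradient (30% to 50%) were hybridised, with 3 replicates each. The pools were non-polysomal RNA, small polysomes and large polysomes, each of 4 fractions, which makes 48 arrays in 16 combinations of 3 arrays.

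Chlorsulfuron blocks acetolactate synthase, the enzyme that starts the synthesis of branched-chain amino acids. GCN2 is the kinase that senses uncharged transfer RNA and phosphorylates the translation factor eIF2α, which lowers translation initiation. STZ is a C2H2 zinc finger protein with an EAR motif that represses transcription, and its transcript is known to accumulate in salt, cold, drought, wounding and high light. ERF proteins carry an AP2 DNA-binding domain, and the family includes the DREB factors that bind promoters of drought and cold genes. An mRNA on several ribosomes sediments with the polysomes, and one that is not being translated stays near the top of the gradient.

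Values are log2 array units as deposited, so a difference of 1 is a factor of 2, and a probe set's level is compared only with itself. All arrays but those named next had similar distributions, so levels across RNA types are relative to the other probe sets of the same array. Array medians ran from 6.15 to 6.31, apart from 5.67 in wild-type mock large polysomes of replicate 1. The 3 arrays of wild-type mock large polysomes lay further from their group mean (SD over probe sets 0.36 to 0.58) than all others (at most 0.29). The largest of these, 0.58, was that of replicate 3, whose wild-type gradients are taken up below. Replicate arrays correlated at 0.929 or more across probe sets, and no pair held identical values. Of 7 shoot markers 1 was measured here, RCA, the activase of the carbon-fixing enzyme Rubisco, at 12.96 to 13.45 in total RNA. Of 6 root markers 4 were measured, and the root hair expansins EXPA7 and EXPA18 and the peroxidase AT5G17820 lay at 2.69 to 3.62, near or under the lower quartile of an array (3.44 to 3.83). PYK10, a beta-glucosidase abundant in roots, lay at 9.98 to 10.99, with means of 10.54, 10.63, 10.46 and 10.71 in gcn2 herbicide, gcn2 mock, wild-type herbicide and wild-type mock, and its part in the results was not tested. The gene GCN2 itself was not analysed here.

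Both genes go against the labels in 1 set of gradients. In replicate 3 of wild type, STZ was lower in the libraries labelled herbicide than in those labelled mock. The log2 differences were -1.50 for the non-polysomal pool, -1.80 for small and -0.64 for large polysomes. AT1G33760 showed -0.53, -0.50 and -0.22 there. In total RNA of the same replicate the differences were 1.71 for STZ and 0.74 for AT1G33760, and in replicates 1 and 2 of wild type all differences of both genes were positive in every RNA type. Below, the wild-type responses of STZ and AT1G33760 in the gradients, and their differences from gcn2, are therefore given with and without replicate 3. Group levels and the gradient values of other genes include it. The values without it carry no test, since it is left out with its values for these genes known.

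In total RNA, STZ was about 16.6-fold higher after herbicide in gcn2 and 4.01-fold higher in wild type. AT1G33760 was 10.7-fold higher in gcn2 and 1.61-fold higher in wild type. Under mock the genotypes lay close together for both genes. Earlier results of these total RNA contrasts chose the genes, so the responses are described here with no test. In bulk RNA, more cells that express a gene and more of its RNA per cell cannot be told apart.

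STZ measured 11.14, 11.22 and 11.08 in the 3 gcn2 herbicide total RNA samples, and 6.94, 6.98 and 7.37 in the gcn2 mock samples. It measured 9.17, 9.04 and 8.68 in the wild-type herbicide samples, against 7.17, 6.73 and 6.97 in the wild-type mock samples. All gcn2 herbicide samples lay above all wild-type herbicide samples, these lay above every mock sample, and the mock samples of the genotypes overlapped. The means were 11.15 ± 0.07 in gcn2 herbicide, 7.10 ± 0.24 in gcn2 mock, 8.96 ± 0.25 in wild-type herbicide and 6.96 ± 0.22 in wild-type mock (SD, n = 3 each).

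AT1G33760 measured 7.25, 7.29 and 6.80 in gcn2 herbicide total RNA, and 3.71, 3.73 and 3.65 in gcn2 mock. It measured 4.25, 4.79 and 4.31 in wild-type herbicide, against 3.95, 3.78 and 3.57 in wild-type mock. As for STZ, gcn2 herbicide lay above wild-type herbicide, this lay above every mock sample, and the mock samples of the genotypes overlapped. However, the lowest wild-type herbicide sample lay only 0.30 above the highest wild-type mock sample. The means were 7.12 ± 0.28 in gcn2 herbicide, 3.70 ± 0.04 in gcn2 mock, 4.45 ± 0.29 in wild-type herbicide and 3.77 ± 0.19 in wild-type mock (SD, n = 3 each). Its mock levels sit near the lower quartile of an array, which makes the size of its change less certain than that of STZ.

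**Figure D1:**
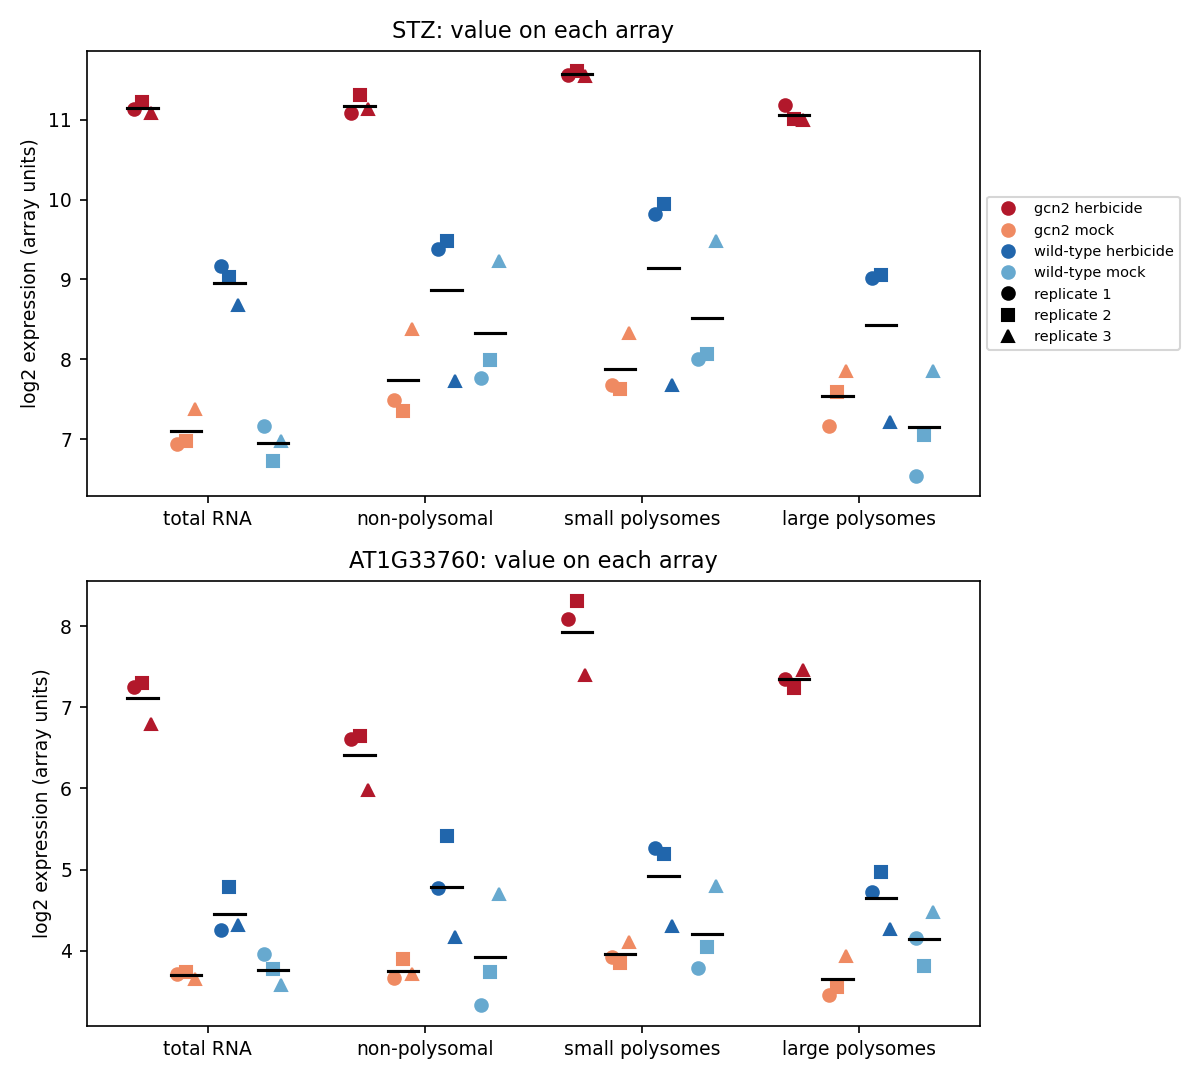
Level of STZ (upper panel) and AT1G33760 (lower panel) on each of the 48 arrays, in log2 array units, by RNA type along the horizontal axis. Colours give the group, symbols the replicate and black bars the mean of 3 arrays. The gcn2 herbicide arrays are the highest in every RNA type, and the triangles of wild-type replicate 3 stand with mock above herbicide in the 3 gradient pools.

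On the log2 scale STZ differed between herbicide and mock by 4.05 ± 0.16 in gcn2 and by 2.00 ± 0.16 in wild type (estimate ± SE). These were ranks 12 and 25 from the top among the 22746 probe sets. The 2 responses differed by 2.05 ± 0.23 (95% interval 1.56 to 2.53), so the wild-type response was 49.5% of the gcn2 response. AT1G33760 differed by 3.42 ± 0.17 in gcn2 and by 0.68 ± 0.17 in wild type, ranks 31 and 666. Its responses differed by 2.73 ± 0.24 (95% interval 2.23 to 3.24), rank 7 of all probe sets, and the wild-type response was 20% of that in gcn2. By replicate, the STZ difference was 4.20, 4.24 and 3.71 in gcn2 and 2.00, 2.31 and 1.71 in wild type. For AT1G33760 it was 3.54, 3.56 and 3.15 in gcn2 and 0.30, 1.01 and 0.74 in wild type. After herbicide, gcn2 exceeded wild type by 2.19 ± 0.16 for STZ and 2.67 ± 0.17 for AT1G33760. In these contrasts 11.5% of probe sets passed an adjusted p of 0.05 for gcn2, 6.73% for wild type, 1.53% for the difference of responses and 4.49% for the genotypes after herbicide.

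Under mock, gcn2 minus wild type in total RNA was 0.14 ± 0.16 for STZ (95% interval -0.20 to 0.48) and -0.07 ± 0.17 for AT1G33760 (95% interval -0.43 to 0.29). It is given with no test, since it follows from contrasts used to choose the genes, and 0.136% of all probe sets passed. The non-polysomal arrays were not used for the choice, and there the mock difference did not pass in limma (-0.59 ± 0.43 for STZ and -0.17 ± 0.33 for AT1G33760, adjusted p = 1.00 each, where 0.0747% of probe sets passed). In polysomal RNA, which averages the 2 polysome pools of each gradient, it was -0.13 ± 0.44 for STZ (95% interval -1.07 to 0.82) and -0.38 ± 0.23 for AT1G33760 (95% interval -0.87 to 0.12). These carry no test, since the gcn2 polysomal arrays were in view at the choice (0.0659% of probe sets passed). Without replicate 3 of wild type the difference in non-polysomal RNA was -0.14 for STZ and 0.22 for AT1G33760, and in polysomal RNA 0.29 and -0.15.

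The non-polysomal arrays had no part in choosing the genes, although they come from the same gradients as the polysomal arrays. In gcn2 both genes rose there, STZ 10.8-fold and AT1G33760 6.31-fold. In wild type the outcome turned on replicate 3.

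Non-polysomal STZ measured 11.08, 11.31 and 11.14 in gcn2 herbicide, and 7.49, 7.36 and 8.37 in gcn2 mock. It measured 9.38, 9.48 and 7.73 in wild-type herbicide, against 7.76, 7.99 and 9.23 in wild-type mock. The gcn2 groups were far apart, while the wild-type groups overlapped because the lowest herbicide and the highest mock value both belong to replicate 3. For AT1G33760 the values were 6.61, 6.64 and 5.98 in gcn2 herbicide, and 3.66, 3.90 and 3.71 in gcn2 mock. Wild-type herbicide gave 4.78, 5.41 and 4.17, against 3.32, 3.74 and 4.70 in wild-type mock. Again the wild-type groups overlapped through replicate 3 and the gcn2 groups did not overlap. Of the non-polysomal mock arrays, 2 in gcn2 and 1 in wild type had AT1G33760 below their lower quartile.

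The rise in gcn2 was 3.44 ± 0.43 for STZ and 2.66 ± 0.33 for AT1G33760 (log2 ± SE, limma, adjusted p = 0.000134 for each), ranks 25 and 77 of all probe sets. Both of the 2 genes passed, where 3.99% of probe sets rose. The genes were chosen with their total RNA responses and gcn2 polysomal RNA known. A rise in gcn2 here, and a larger one than in wild type, was therefore likely beforehand. The non-polysomal tests are thus no independent support for either. In wild type neither passed: the difference was 0.54 ± 0.43 for STZ (95% interval -0.38 to 1.45) and 0.87 ± 0.33 for AT1G33760 (95% interval 0.16 to 1.57), with an adjusted p of 1.00 for each. No probe set passed in that limma comparison (0%), in which 405 had an unadjusted p under 0.05. With replicates 1 and 2 only in wild type, the difference was 1.55 ± 0.29 for STZ and 1.56 ± 0.28 for AT1G33760.

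The response of STZ in non-polysomal RNA was larger in gcn2 than in wild type by 2.901 ± 0.61 (adjusted p = 0.0294), where 0.95% of probe sets passed in that direction. For AT1G33760 the difference of responses was 1.79 ± 0.47 and did not pass (adjusted p = 0.0893). Without replicate 3 of wild type the difference was 1.88 for STZ and 1.09 for AT1G33760. The STZ call was lost when 1 of 6 arrays was left out: any gcn2 herbicide array (adjusted p = 0.0657, 0.0880 and 0.0523 for replicates 1, 2 and 3), gcn2 mock replicate 1 or 2 (0.0839 and 0.1039), or wild-type mock replicate 3 (0.0609). The AT1G33760 difference passed when wild-type herbicide replicate 2 or wild-type mock replicate 1 was left out (2.105, adjusted p = 0.0421, and 2.09, adjusted p = 0.0479).

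**Figure D2:**
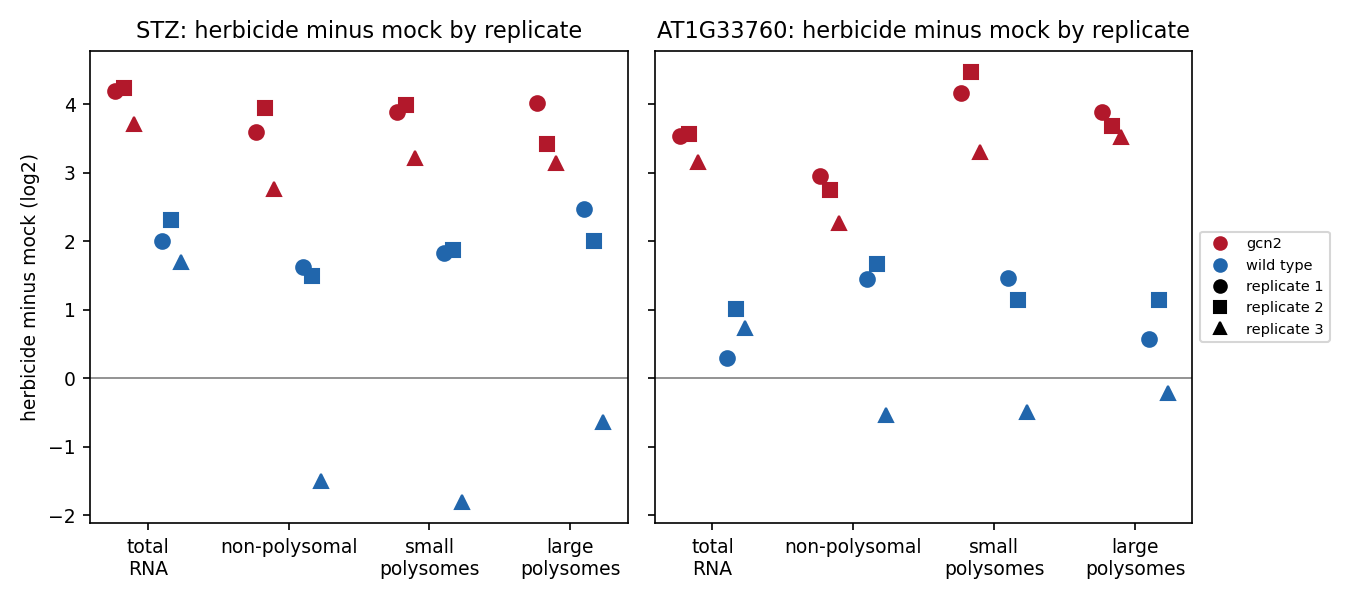
Difference between herbicide and mock (log2) for the arrays of the same replicate number, for STZ (left) and AT1G33760 (right), by RNA type, with gcn2 in red and wild type in blue. All gcn2 differences lie between 2.27 and 4.47, and the wild-type differences below 0 are those of replicate 3 in the 3 gradient pools.

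Small polysomes gave the highest level of both genes in gcn2 after herbicide. There STZ measured 11.56, 11.61 and 11.55 in gcn2 herbicide and 7.67, 7.62 and 8.33 in gcn2 mock. In wild type it measured 9.82, 9.94 and 7.68 after herbicide, against 8.00, 8.07 and 9.48 after mock. The gcn2 herbicide arrays spread over less than 0.1, whereas the wild-type arrays of each treatment spread over more than 1.

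Large polysomes gave STZ 11.18, 11.01 and 11.00 in gcn2 herbicide and 7.17, 7.59 and 7.85 in gcn2 mock. The wild-type values were 9.02, 9.05 and 7.21 after herbicide, against 6.54, 7.05 and 7.85 after mock. In each pool the gcn2 groups were separate and the wild-type groups overlapped.

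AT1G33760 measured 8.08, 8.31 and 7.40 in small polysomes of gcn2 herbicide, and 3.92, 3.84 and 4.10 in gcn2 mock. Wild type gave 5.26, 5.19 and 4.30 after herbicide, against 3.79, 4.04 and 4.79 after mock. The gcn2 herbicide arrays lay above all wild-type herbicide arrays, and the gcn2 mock arrays lay within the range of the wild-type mock arrays.

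In large polysomes AT1G33760 measured 7.35, 7.23 and 7.46 in gcn2 herbicide, and 3.45, 3.56 and 3.94 in gcn2 mock. Wild type gave 4.72, 4.96 and 4.26 after herbicide, against 4.15, 3.81 and 4.48 after mock. Both pools thus show gcn2 herbicide apart from all other groups.

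In polysomal RNA, herbicide and mock differed in gcn2 by 3.61 ± 0.44 for STZ and 3.84 ± 0.23 for AT1G33760. The responses of the genotypes differed by 2.66 ± 0.63 and 3.23 ± 0.33. Polysomal RNA of gcn2 was in view when the genes were chosen, so these values carry no test (4.77% of probe sets passed for gcn2 and 0.409% for the difference of responses). The wild-type response was not used for the choice and was tested. It did not pass for STZ (0.96 ± 0.44, 95% interval 0.01 to 1.90, adjusted p = 0.99) or AT1G33760 (0.60 ± 0.23, 95% interval 0.11 to 1.10, adjusted p = 0.99). In that limma comparison 0 probe sets passed (0%) and 874 had an unadjusted p under 0.05. With replicates 1 and 2 only in wild type, the difference was 2.04 ± 0.21 for STZ and 1.09 ± 0.18 for AT1G33760. The differences between the genotypes' responses were then 1.57 ± 0.28 for STZ and 2.75 ± 0.24 for AT1G33760.

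The 2 genes parted in polysome loading, taken as polysomal minus non-polysomal RNA of the same gradient. For AT1G33760 the loading was 1.11, 1.13 and 1.45 in the gcn2 herbicide gradients, and 0.03, -0.20 and 0.31 in the gcn2 mock gradients. In wild type it was 0.21, -0.34 and 0.11 after herbicide, against 0.65, 0.19 and -0.07 after mock. As deposited, only the gcn2 herbicide gradients lay above 1, and the other 9 gradients overlapped across groups. The wild-type mock value of 0.65 includes the large-polysome array with the low median. Centring each array on its median raises that value towards those of gcn2 herbicide. Herbicide and mock differed by 1.18 ± 0.23 in gcn2 (95% interval 0.69 to 1.67), rank 13 of all probe sets, where 0.0484% passed. The genotypes' loading responses differed by 1.44 ± 0.33 (95% interval 0.75 to 2.14), rank 10. The polysomal values behind these 2 differences were in view when the gene was chosen, so neither is tested, and the rise from mock levels near the lower quartile also enters them.

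For STZ the loading was 0.29, 0.00 and 0.13 in gcn2 herbicide, and -0.07, 0.25 and -0.28 in gcn2 mock. It was 0.04, 0.02 and -0.28 in wild-type herbicide, against -0.49, -0.43 and -0.56 in wild-type mock. The gcn2 groups overlapped, and as deposited each wild-type herbicide gradient lay above each wild-type mock gradient. The large-polysome array with the low median enters wild-type mock replicate 1. With each array centred on its median, that gradient lay above wild-type herbicide replicate 3. Centring also moved the median loading change of all probe sets in wild type to -0.10, against 0.06 as deposited. The STZ difference in gcn2 was 0.17 ± 0.20 (95% interval -0.25 to 0.60), and the genotypes' responses differed by -0.25 ± 0.29 (95% interval -0.85 to 0.36). In wild type the test of the loading change did not pass for STZ (0.42 ± 0.20, adjusted p = 0.92) or AT1G33760 (-0.26 ± 0.23, adjusted p = 0.95), and 0% of probe sets passed in limma, with 1188 at an unadjusted p under 0.05. Without replicate 3 of wild type the changes were 0.49 for STZ and -0.48 for AT1G33760, and the genotypes' responses differed by -0.32 and 1.66.

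**Figure D3:**
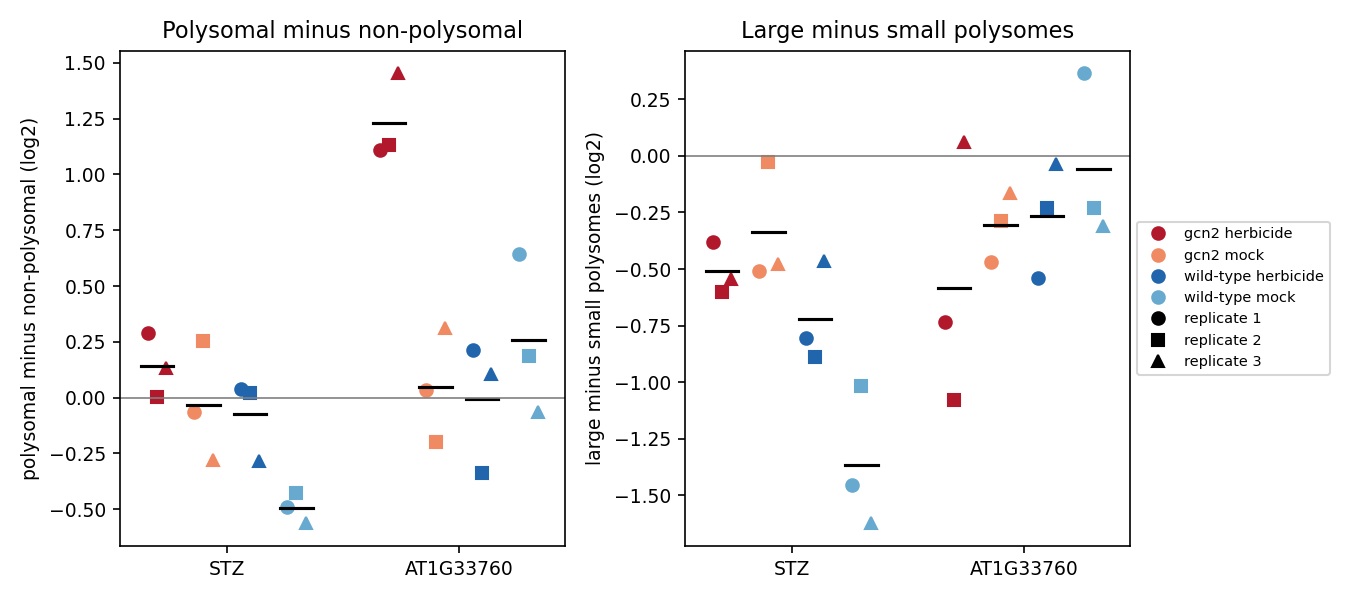
Polysomal minus non-polysomal RNA (left) and large minus small polysomes (right) of each gradient, in log2, for STZ and AT1G33760, with the group in colour, the replicate as a symbol and the group mean as a bar. In the left panel the 3 gcn2 herbicide gradients of AT1G33760 lie from 1.11 to 1.45, apart from all others, and in the right panel every STZ gradient lies below 0.

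Within the polysomes, STZ was lower in large than in small polysomes in 12 of 12 gradients and AT1G33760 in 10 of 12. For STZ the mean of large minus small polysomes was -0.51 ± 0.11 in gcn2 herbicide, -0.34 ± 0.27 in gcn2 mock, -0.72 ± 0.22 in wild-type herbicide and -1.36 ± 0.31 in wild-type mock (SD, n = 3 each). The means for AT1G33760 were -0.58 ± 0.58, -0.31 ± 0.15, -0.27 ± 0.25 and -0.06 ± 0.37 in the same groups. The change with herbicide in gcn2 was -0.17 ± 0.24 for STZ (95% interval -0.68 to 0.34) and -0.28 ± 0.30 for AT1G33760 (95% interval -0.91 to 0.35). It is given with no test, since these arrays were in view at the choice, and in limma 0 probe sets passed (0%) while 440 had an unadjusted p under 0.05. In wild type the change was 0.64 ± 0.24 for STZ (95% interval 0.13 to 1.16, adjusted p = 0.79) and -0.21 ± 0.30 for AT1G33760 (adjusted p = 0.93), and 0% passed, with 1379 at an unadjusted p under 0.05. Without replicate 3 of wild type the change was 0.39 for STZ and -0.45 for AT1G33760. The array of wild-type mock large polysomes with the low median enters these values. Centring each array on its median moved the median change of all probe sets in wild type to -0.15, against 0.10 as deposited, and the STZ change to 0.40 (adjusted p = 0.66).

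Ordered by mean level, with replicate 3 of wild type included, gcn2 herbicide held the 4 highest of the 16 places for both genes. For STZ the order was small polysomes (11.57), non-polysomal RNA (11.18), total RNA (11.15) and large polysomes (11.06), and the last 3 overlapped. Wild-type herbicide small polysomes followed at 9.15, 1.92 below, and from there to wild-type mock total RNA at 6.96 each group overlapped with the next. For AT1G33760 the order was small polysomes (7.93), large polysomes (7.35), total RNA (7.12) and non-polysomal RNA (6.41). The first 3 of these overlapped with their neighbours, non-polysomal RNA stood apart from total RNA, and wild-type herbicide small polysomes came next at 4.92. From there down to gcn2 mock large polysomes at 3.65 each group overlapped with the next.

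The other measured genes of the 2 families did not follow the pair as a group. The C2H2 list holds 11 stress zinc finger genes, of which 2 besides STZ were measured here, AT2G28200 and AT3G53600. The ERF and DREB list holds 59 genes, of which 10 besides AT1G33760 were measured here. These lists were drawn up with results of these data known, so the calls and adjusted p-values of their genes are descriptive. In gcn2 total RNA 0 of 2 C2H2 genes passed, and of 10 ERF genes 1 rose and 1 fell, where 6.67% of probe sets rose and 4.87% fell. In wild type 1 of 2 C2H2 genes and 1 of 10 ERF genes rose and 0 fell, where 4.05% of probe sets rose and 2.68% fell. The median change of the ERF genes was 0.03 in gcn2 and 0.31 in wild type, against -0.06 and -0.02 over all probe sets. For the C2H2 genes the median change was 0.01 in gcn2 and 0.65 in wild type.

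AT1G44830, of the ERF list, rose in gcn2 by 2.1 ± 0.20 (adjusted p = 2.06e-06), with means of 4.74 in gcn2 herbicide and 2.64 in gcn2 mock. Its difference in wild type was 0.45 ± 0.20 (adjusted p = 0.22), with means of 3.09 after herbicide and 2.64 after mock. Its response was larger in gcn2 by 1.65 ± 0.29 (adjusted p = 0.0049, where 1.31% of probe sets passed in that direction). It also rose in gcn2 non-polysomal RNA by 2.04 ± 0.39 (adjusted p = 0.0039) and in gcn2 polysomal RNA by 2.33 ± 0.25 (adjusted p = 7.14e-05). The mock means lie under every array's lower quartile, which leaves the size of its change uncertain.

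AT2G28200, of the C2H2 list, went the other way between the genotypes. It rose in wild type by 1.21 ± 0.15 (adjusted p = 0.000151) and differed by 0.21 ± 0.15 in gcn2 (adjusted p = 0.42). Its means were 8.31 in gcn2 herbicide, 8.10 in gcn2 mock, 8.98 in wild-type herbicide and 7.76 in wild-type mock. The response was smaller in gcn2, by -1.004 ± 0.21 (adjusted p = 0.0213, where 0.211% of probe sets passed in that direction). That call was lost without wild-type herbicide replicate 1 or 2 (adjusted p = 0.0590 and 0.0671), wild-type mock replicate 1 (0.0515), gcn2 mock replicate 1 or 2 (0.0533 and 0.0682) or gcn2 herbicide replicate 2 (0.0598). AT2G44940 rose in wild type by 0.99 ± 0.24 (adjusted p = 0.0238) and measured 0.28 ± 0.24 in gcn2 (adjusted p = 0.52). AT1G01250 fell in gcn2 by 0.51 on the log2 scale (SE 0.15, adjusted p = 0.0395), against -0.18 in wild type (adjusted p = 0.56). The wild-type call of AT2G44940 was lost without wild-type herbicide replicate 1 or 2 or wild-type mock replicate 1 (adjusted p = 0.0532, 0.1238 and 0.1239). The call of AT1G01250 was lost without any of the gcn2 herbicide arrays (adjusted p = 0.0713, 0.0688 and 0.1442 for replicates 1, 2 and 3), gcn2 mock replicate 1 or 2 (0.1369 and 0.1445) or wild-type mock replicate 2 (0.0504). The other ERF genes, which include TINY, TINY2, HRD and ORA47, ranged from -0.27 to 0.91 in gcn2 and from -0.00 to 0.59 in wild type.

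Replicate numbers pair the total RNA samples, and when the replicate entered the fit as a block 4 of 10 ERF genes rose in wild type, where 8.15% of probe sets did. These were AT1G44830 (adjusted p = 0.0162), AT2G44940 (adjusted p = 0.000817), TINY2 (adjusted p = 0.0020) and TINY (adjusted p = 0.0415). With the block 21.7% of all probe sets passed for gcn2, 16% for wild type, 4.62% for the difference of responses, 0.717% for the genotypes under mock and 11.3% for the genotypes after herbicide.

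**Figure D4:**
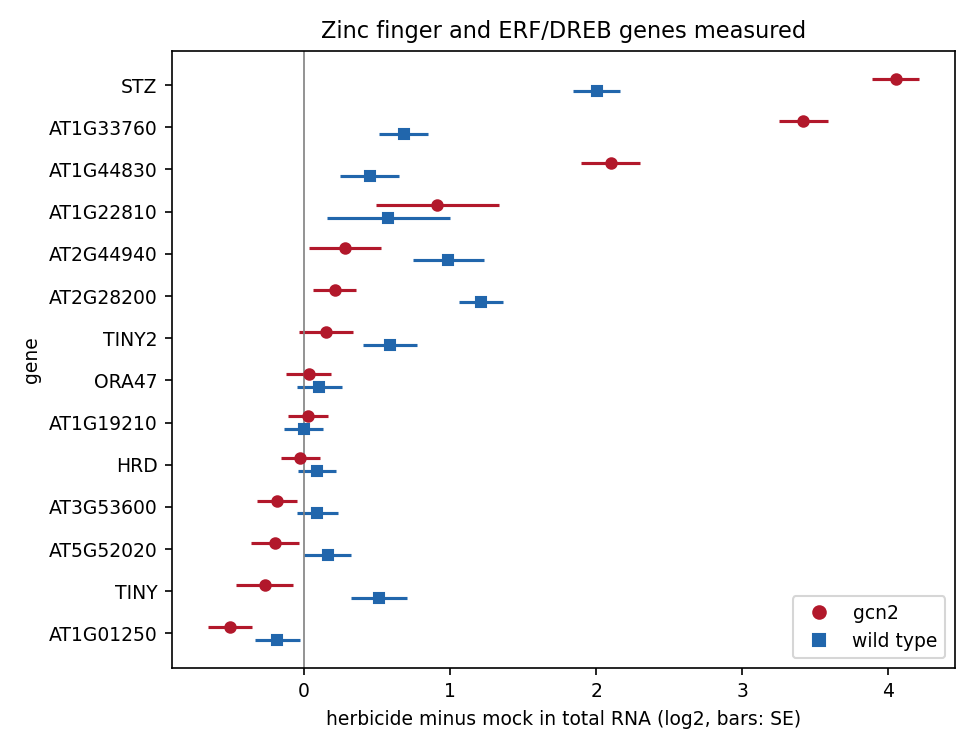
Difference between herbicide and mock in total RNA (log2) for STZ, AT1G33760 and the 12 other measured genes of the C2H2 and ERF lists, with gcn2 as red circles, wild type as blue squares and the SE as bars. STZ (4.05 and 2.00) and AT1G33760 (3.42 and 0.68) lie furthest to the right in gcn2, followed by AT1G44830 (2.1 and 0.45).

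Likeness to each gene was measured across the 48 arrays as the root mean square difference of log2 values, after each gene was centred on its own mean, over 13512 other probe sets with 1 named gene. The arrays share groups, gradients and normalization, so likeness is a description. Similar herbicide responses of the genes picked this way follow from the choice. The closest to STZ were AT4G27280 (0.397), AT2G32030 (0.403), AT1G78410 (0.432), AT1G24140 (0.434) and AT3G54150 (0.517), and AT1G33760 came at rank 14 (0.576). In gcn2 total RNA these 5 genes differed between herbicide and mock by 3.17, 3.53, 3.30, 3.05 and 3.69, and in wild type by 1.89, 1.58, 1.65, 1.41 and 0.83. In polysomal RNA their differences ran from 3.14 to 3.71 in gcn2 and from 0.24 to 0.84 in wild type, with replicate 3 included.

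Closest to AT1G33760 were AT3G54150 (0.458), AT2G32140 (0.488), AT1G24140 (0.501), AT2G20142 (0.505) and CML41, a calmodulin-like gene (0.508), and STZ came at rank 12. In total RNA these differed between herbicide and mock by 3.69, 3.12, 3.05, 3.29 and 2.97 in gcn2 and by 0.83, 0.83, 1.41, 1.03 and 0.27 in wild type. AT3G54150 and AT1G24140 were thus among the closest 5 of both genes. With Pearson correlation as the measure, 3 of the 5 were again among the closest for each gene, and without the gradients of wild-type replicate 3 all 5 were for STZ and 4 of 5 for AT1G33760.

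The loci on either side of AT1G33760 did not pass in total RNA of gcn2: AT1G33750 differed between herbicide and mock by 0.14 (adjusted p = 0.60) and AT1G33770 by -0.08 (adjusted p = 0.78). The neighbours of STZ, TAF4B and RSL4, were not analysed here.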

How the data were processed

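RNA of 48 samples was measured on Affymetrix ATH1 arrays. The authors deposited log2 expression values per probe set, and per the submitters' processing notes RMA, affy and MAS5 were used; the sources used here give neither their versions nor whether all arrays were normalized together. Of 22810 probe sets, 64 controls were left out and 22746 tested. The probe-to-gene table names 1 gene for 13513, several for 503 and none for 8730; genes it does not name were not analysed here.

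For each measure (total RNA, non-polysomal RNA, polysomal RNA, loading, large minus small polysomes), limma 3.58.1 in R 4.3.3 (lmFit, eBayes) fitted 4 group means over 12 samples, with Benjamini-Hochberg adjustment over all probe sets and a threshold of 0.05. The total RNA fit was tested on data simulated with independent noise. That simulation held no replicate pairing and no gradients. Arrays carry no counts, so their number limits the precision.

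STZ, AT1G33760, the lists and the tests were chosen with earlier results of these data known: the total RNA responses, their difference, the genotypes after herbicide, and polysomal RNA of gcn2. For STZ and AT1G33760, contrasts used for that choice, or built from its arrays of gcn2, carry no p. Other genes carry an adjusted p there, which for the listed genes is descriptive. Named genes were STZ and AT1G33760, the 5 genes most like each, and every listed gene past the threshold in a total RNA response. Replicate numbers were taken as pairing samples where residuals of all 18 same-number pairs correlated above 0.1, which held in total RNA (mean 0.37, lowest 0.15) but not in the gradients. Alternatives were a replicate block, leaving out each array, wild type without its replicate 3 gradients, median centring, quantile normalization, a filter on dim probe sets, array weights and 1 fit over 48 arrays.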

Additional observations from a re-analysis of the deposited data

Results flagged for a closer look

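The response of STZ to herbicide in non-polysomal RNA differed between the genotypes by the test of the difference itself, with a larger response in gcn2 by 2.901 ± 0.61 on the log2 scale (limma, adjusted p = 0.0294). It was 3.44 in gcn2, where all 3 replicates were higher after herbicide, and 0.54 in wild type, where 2 of 3 were. The call was lost with the replicate as a block (adjusted p = 0.0514) and when 1 of 6 of the 12 arrays was left out (adjusted p from 0.0523 to 0.1039). With wild type reduced to replicates 1 and 2 the difference was 1.88. STZ was chosen with the same difference in total RNA known, so this test is no independent support.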

How the results depend on the processing

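The response of both genes in gcn2 kept its direction in total, non-polysomal and polysomal RNA under every alternative run, and in non-polysomal RNA its side of the threshold. Results that moved are given here, all from limma, and the cause was not tested. With replicates 1 and 2 only in wild type, the wild-type response was 1.55 for STZ and 1.56 for AT1G33760 in non-polysomal RNA. In polysomal RNA it was 2.04 and 1.09. The values of replicate 3 were known when it was left out, so these carry no test. Of all probe sets 540 (2.37%) then passed for wild type in non-polysomal and 205 (0.901%) in polysomal RNA, against 0 with replicate 3. The difference of polysomal responses was then 1.57 and 2.75. The mock difference changed sign in non-polysomal RNA for AT1G33760 (0.22) and in polysomal RNA for STZ (0.29). With the replicate block the non-polysomal difference of STZ responses kept its value of 2.901 but not its call (adjusted p = 0.0514). The gradients missed the rule that all 18 pairs correlate above 0.1, so the main fit has no block there. In non-polysomal RNA 10 of 18 pairs did (mean correlation 0.10), and in polysomal RNA 15 (mean 0.29), so some pairing is not excluded. The block changed no other call of STZ or AT1G33760. Array weights gave mock differences of 0.0201 for AT1G33760 in total RNA and 0.0377 for STZ in polysomal RNA, both with the sign changed, a non-polysomal difference of responses of 1.58 that passed for AT1G33760 (adjusted p = 0.032), and loading changes of STZ of -0.0068 in gcn2 and -0.45 for the difference of responses. The fit over 48 arrays gave that AT1G33760 difference 1.79 (adjusted p = 0.0139). It ended the total RNA calls of AT1G01250, AT2G28200 and AT2G44940 and the differences of responses of AT1G44830 and AT2G28200 (adjusted p = 0.3825, 0.1229, 0.4213, 0.2284 and 0.8974). Leaving out each array in turn gave ranges of 2.33 to 3.22 for the non-polysomal difference of STZ responses and 1.40 to 2.105 for that of AT1G33760. The mock difference ranged from -0.17 to 0.0239 in total and -0.47 to 0.22 in non-polysomal RNA for AT1G33760, and from -0.41 to 0.29 in polysomal RNA for STZ. The change in large minus small polysomes of AT1G33760 in wild type ranged from -0.34 to 0.0025.

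Counts over all probe sets moved more than the values. With the block 4926, 3643, 1051, 163 and 2561 probe sets passed in total RNA for gcn2, wild type, the difference of responses, the mock difference and the herbicide difference, against 2626, 1530, 347, 31 and 1022 without it. The fit over 48 arrays gave 968, 1, 45, 14 and 301. In polysomal RNA of gcn2 1685 passed with the block, 2627 with array weights and 1702 without wild-type replicate 3, against 1085. Array weights gave 2934 for gcn2, 671 for the difference of responses and 29 for the mock difference in non-polysomal RNA, against 1278, 240 and 17, where the fit over 48 arrays gave 395 and 37 for the last 2. In total RNA array weights gave 58 for the mock and 1717 for the herbicide difference. For the polysomal difference of responses 184 passed with array weights and 210 with median centring, against 93. For loading in gcn2 247 passed with array weights, 96 without wild-type replicate 3, and 7 with the block or median centring, against 11. Leaving out each array gave 1712 to 2946 for gcn2 and 670 to 1641 for wild type in total RNA, 754 to 1447 for gcn2 and 115 to 226 for the difference of responses in non-polysomal RNA, 23 to 149 for the polysomal difference of responses and 0 to 74 for loading in gcn2. Quantile normalization, median centring and the filter on dim probe sets moved no call of STZ or AT1G33760.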
